A study of Homo sapiens with 9 samples.

Results

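Histone genes encode the proteins around which DNA is wound, and their transcripts were followed here in H69, a cell line from a human small cell lung cancer that grows as floating clusters. A gene counted as a member when the platform annotation gave its probe set 1 symbol only and that symbol was on a list. The list held the H1, H2AC, H2BC, H3C and H4C series and H2AZ1, H2AZ2, H2AX, H3-3A, H3-3B and MACROH2A1. This gave 55 members of 19775 genes measured, each represented by its brightest probe set. H3-3B had no probe set with its symbol alone and is not among the members. The H1 class held 11 of them, H2A 13, H2B 14, H3 8 and H4 9. By kind, 41 were replication dependent, 6 replication independent and 4 germline genes, and the other 4 (H1-10-AS1, H1-9P, H2AC5P and H4C10P) do not encode protein.

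The cells had been kept for 24 h in complete medium with DMSO as the vehicle, with 100 nM PIK75, or with TGX221, whose labelled dose is 1 mM, and 3 Affymetrix arrays were run per group. The treatment field of the controls reads none, while the treatment protocol gives DMSO. Both compounds inhibit phosphoinositide 3-kinase, PIK75 chiefly the isoform p110α and TGX221 the isoform p110β, and the series asks what targeting p110α does to such cells. The labelled doses differ, and since the TGX221 unit cannot be checked from the files, every TGX221 value stands at an uncertain dose. All groups are 1 cell line, and no label says that the arrays of a group came from separate cultures, so p-values measure the spread between these arrays, which may be technical.

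Each value is a log2 signal, so a difference of 1 is a doubling, and levels of different probe sets are not compared. The median over all genes lay between 8.20 and 8.23 on the 9 arrays. Neuroendocrine markers (10 of 12 on the list) had mean values of 8.95 to 13.1 and 4 epithelial markers 8.80 to 13.3. Markers of leukocytes, fibroblasts and endothelium, cells that a pure line lacks, read 6.03 to 9.38. With PIK75, 1 of 10 neuroendocrine markers was higher and 7 lower, 3 of 4 epithelial markers were lower, and so were 2 of 5 control genes. Beside these stood 35.2% higher and 25.2% lower of all genes. Among genes with a mean of 10 or more the shares were 23.3% and 48.6%. The 3′ minus 5′ difference of the actin control probe sets was 0.467, 0.535 and 1.13 on PIK75 replicates 1, 3 and 5. It was 0.239 to 0.443 on the control arrays and 0.256 to 0.415 on the TGX221 arrays. All PIK75 arrays thus lay above all others, replicate 5 by the most. Its part in the PIK75 differences was not tested.

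Core histones of the H2A, H2B, H3 and H4 classes form the nucleosome, and H1 binds the linker DNA between nucleosomes. Replication-dependent histone genes lie in clusters, are transcribed in S phase, and give mRNAs that end in a stem-loop bound by the protein SLBP in place of a poly(A) tail. Replication-independent variants such as H2A.Z, macroH2A and H3.3 are encoded outside the clusters by ordinary polyadenylated mRNAs and are deposited outside S phase as well. H2A.X is counted with them here, although its gene gives a stem-loop mRNA besides a polyadenylated one. Target labelling with an oligo(dT) primer, as in the kit named in the labels, copies polyadenylated RNA, and some clustered histone genes are known to make such transcripts. These arrays do not tell apart the stem-loop and the polyadenylated form, nor, being bulk measurements, fewer cells in S phase and less RNA per cell.

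Of the 51 protein-coding members, 40 lie on chromosome 6 between 25726777 and 27893891 (GRCh38.p14). To show what lies upstream of a few genes the results turn on, the 150 bases before the annotated start of 4 genes that rose with PIK75 (H2BC5, H2BC6, H2AC8 and H2BC12) and, as a contrast, of H2BC21, an H2B gene that fell, are given 5′ to 3′ on the strand of the gene, from RefSeq (GRCh38.p14). H2BC5 is taken from chr6:26157971-26158120 (plus strand), H2BC6 from chr6:26183611-26183760 (plus), H2AC8 from chr6:26216771-26216920 (plus), H2BC12 from chr6:27146859-27147008 (minus) and H2BC21 from chr1:149886683-149886832 (minus). Capitals mark exact matches, on either strand, to the octamer ATTTGCAT bound by OCT1, to CCAAT and to TATAAA.
H2BC5: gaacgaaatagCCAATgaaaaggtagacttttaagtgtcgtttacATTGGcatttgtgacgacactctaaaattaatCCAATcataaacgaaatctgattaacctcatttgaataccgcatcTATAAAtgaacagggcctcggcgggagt
H2BC6: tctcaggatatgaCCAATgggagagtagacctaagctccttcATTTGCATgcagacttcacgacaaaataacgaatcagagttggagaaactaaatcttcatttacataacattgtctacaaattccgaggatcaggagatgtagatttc
H2AC8: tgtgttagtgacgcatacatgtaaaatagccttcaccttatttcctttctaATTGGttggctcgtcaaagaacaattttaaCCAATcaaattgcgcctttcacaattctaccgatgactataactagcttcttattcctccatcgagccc
H2BC12: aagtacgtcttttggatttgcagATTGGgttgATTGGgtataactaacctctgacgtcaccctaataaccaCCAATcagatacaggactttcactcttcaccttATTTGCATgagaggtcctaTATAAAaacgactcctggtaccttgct
H2BC21: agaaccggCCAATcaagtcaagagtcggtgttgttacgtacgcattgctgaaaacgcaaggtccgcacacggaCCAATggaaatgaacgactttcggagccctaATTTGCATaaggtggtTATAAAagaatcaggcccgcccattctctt

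No 2 matches overlap in these windows. The octamer stands 46 bases before the start in both H2BC12 and H2BC21 and 108 bases before it in H2BC6. H2BC5 and H2AC8 have no octamer in these 150 bases, and H2BC6 and H2AC8 no TATAAA. Among 48 members with a promoter in the table, 16 (33.3%) held the octamer within 250 bases before the start, against 1.66% of 27305 promoters of all genes searched in the same way. These were 10 of 13 H2B and 6 of 12 H2A genes, with 0 of 9 H1, 0 of 7 H3 and 0 of 7 H4 genes. CCAAT was found in 41 members (85.4%, against 33% of all promoters), in every H2B promoter and in 2 of 7 H4 promoters, and TATAAA in 30 (62.5%, against 11.1%). TTTCCCGC, a form of the E2F site, was found in 1 member (2.08%, against 1.42%). H2BC12, which rose, and H2BC21, which fell, share the octamer, CCAAT and TATAAA, and a match shows neither binding nor a cause.

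With PIK75, a small group of H2B and H2A genes was clearly higher, led by H2BC5 at 2.25-fold, while the variant genes H2AZ1 and MACROH2A1 were lower. Limma, a linear model fitted across all 19775 genes with Benjamini-Hochberg adjustment over all of them, called 31 of 55 members higher and 3 lower (H2AZ1, MACROH2A1 and H2BC21) at an adjusted p below 0.05. Over all genes the call rate was 60.4%, with 35.2% higher and 25.2% lower, and among members 56.4% were higher and 5.45% lower. The members' median log2 difference was 0.18, against 0.09 for all genes. All PIK75 arrays lay above all controls for 32 members and below them for 4, as they did for 38.3% and 26.4% of all genes. With the arrays centred on the hybridization spikes, control RNAs added after labelling, the members' median turned to -0.20, with 4 called higher and 26 lower, while that of all genes went to -0.29 (343 higher, 13816 lower). With the poly-A spikes, control RNAs added before labelling, 12 members were higher and 3 lower, and with cyclic loess between arrays 17 and 5. Centring moves every gene by the same amount, so the members' median stayed 0.089 above that of all genes under both spike scalings, and it was 0.054 above with cyclic loess.

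**Figure D1:**
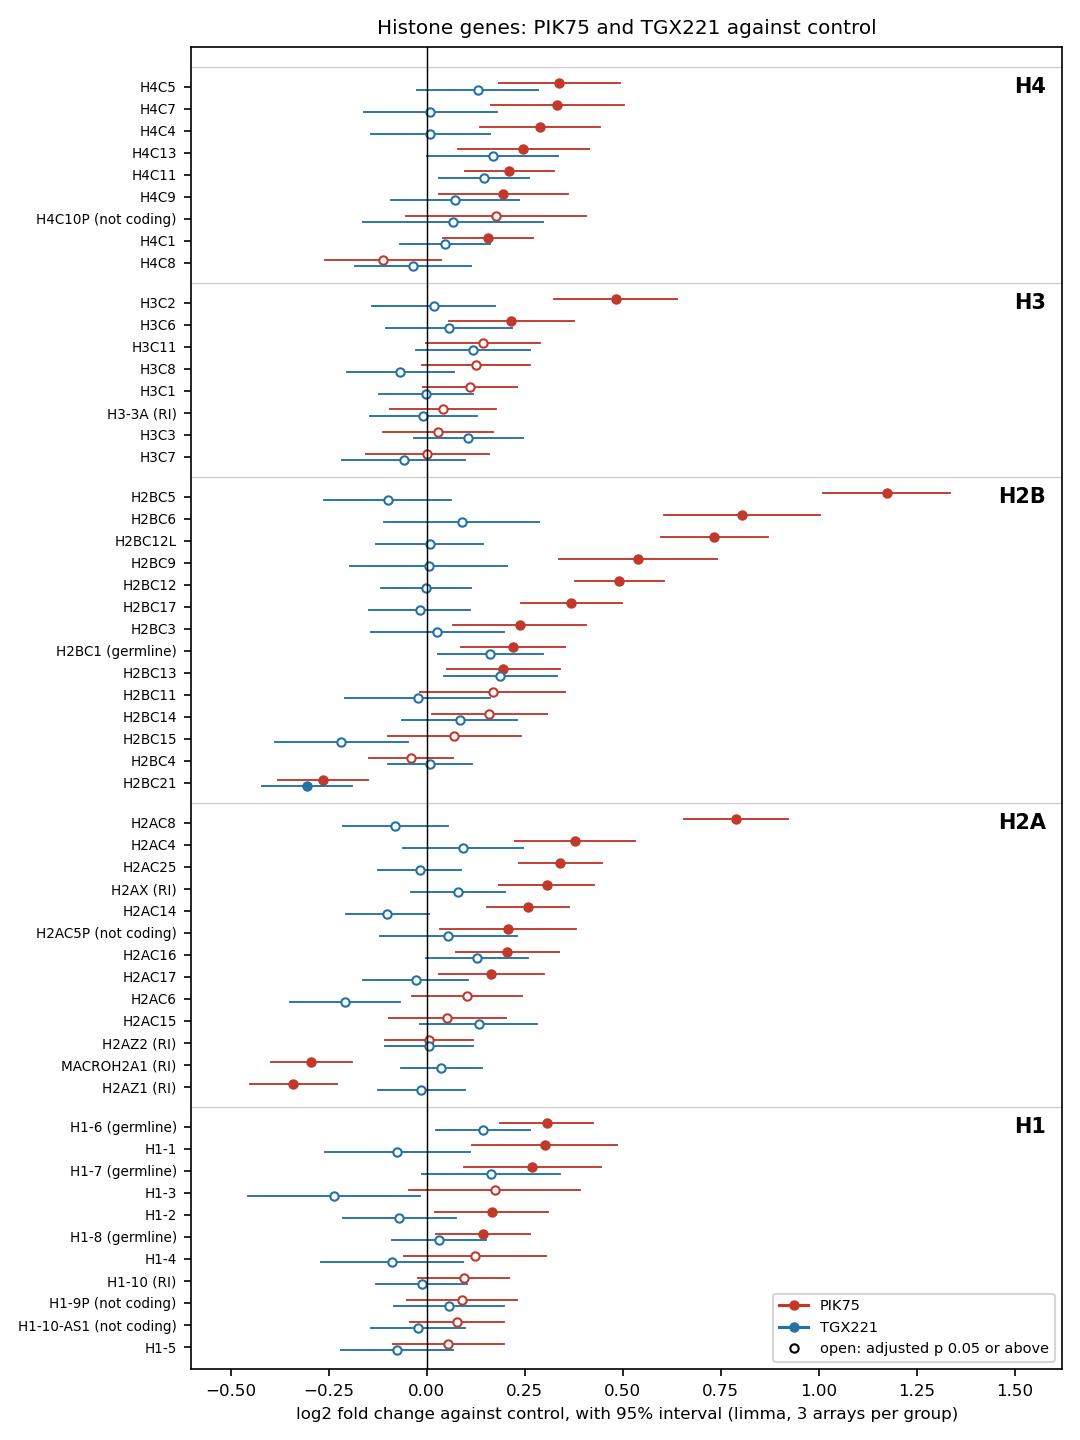
Log2 difference from control of the 55 histone genes, in blocks by class, for PIK75 (red) and TGX221 (blue), with the 95% interval of the limma fit over 3 arrays per group; filled points have an adjusted p below 0.05 and RI marks replication-independent genes. PIK75 points run from -0.34 to 1.17 and those of TGX221 from -0.31 to 0.19. The scale is that of the deposited values; with arrays centred on the hybridization spikes 4 members are called higher and 26 lower with PIK75.

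A rise of 1.5-fold or more, called in 1.48% of all genes, was seen in 4 members: H2BC5, H2BC6, H2AC8 and H2BC12L. These are also the 4 that stayed higher with the hybridization spikes. H2BC5 (Entrez gene 3017, chromosome 6, 26158121 to 26171349), which encodes an H2B, read 9.91, 9.96 and 10.01 on the control arrays and 11.25, 11.18 and 10.95 on the PIK75 arrays. All PIK75 arrays lay far above all controls, with a log2 difference of 1.17 (SE 0.075, adjusted p = 6.73e-08). Its second probe set gave 1.02 (SE 0.074).

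H2BC6 (Entrez gene 8344, chromosome 6, 26183761 to 26184230), another H2B gene of the same cluster, read 9.71, 9.85 and 10.01 in controls and 10.80, 10.68 and 10.51 with PIK75. The groups did not overlap, and the gene was 1.75-fold higher (log2 0.80, SE 0.091, adjusted p = 1.06e-05). H2BC12L (Entrez gene 54145, chromosome 21, 43565182 to 43565648), an H2B gene outside the clusters, read 10.29, 10.22 and 10.40 against 11.08, 11.02 and 11.02. It was 1.66-fold higher (log2 0.73, SE 0.063, adjusted p = 8.74e-07), again without overlap.

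The fourth, H2AC8 (Entrez gene 3012, chromosome 6, 26216921 to 26217437), encodes an H2A. Its controls lay at 8.48, 8.27 and 8.39 and its PIK75 arrays close together at 9.20, 9.16 and 9.15. The difference was 1.73-fold (log2 0.79, SE 0.061, adjusted p = 3.69e-07). Both probe sets of H2BC5, and those of H2BC6, H2BC12L and H2BC9 (below), carry a suffix that Affymetrix gives to probes shared with near-identical sequences. Signal from other H2B genes cannot be told apart in them, so the second H2BC5 probe set is no independent check of the first. The probe set of H2AC8 does not carry the suffix.

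Smaller rises followed in further H2B, H3 and H2A genes. H2BC12 (Entrez gene 85236, chromosome 6, 27138293 to 27146858) read 11.78, 11.76 and 11.89 in controls and 12.33, 12.26 and 12.31 with PIK75, a 1.41-fold rise with tight replicates (log2 0.49, SE 0.052, adjusted p = 6.35e-06). H2BC9 read 9.13, 9.21 and 9.25 against 9.91, 9.82 and 9.48 (log2 0.54, SE 0.092, adjusted p = 0.000347). PIK75 replicate 5, the array with the highest actin difference, was the lowest of the H2BC9 values under PIK75, and without it the H2BC9 difference was 0.67. H3C2, the H3 gene with the clearest change, read 6.35, 6.31 and 6.34 against 6.97, 6.75 and 6.73 (log2 0.48, SE 0.072, adjusted p = 0.000115). On the scale of the hybridization spikes these 3 genes kept their sign but not their call (H2BC12 0.12, H2BC9 0.17 and H3C2 0.11, with adjusted p = 0.179, 0.0991 and 0.243, each the highest over its alternatives, whose lowest were 5.34e-08, 5.31e-06 and 5.56e-05).

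H2AC4 and H2AC25 are further H2A genes, the latter on chromosome 1 (228457364 to 228457873). H2AC4 read 9.03, 8.91 and 8.88 in controls and 9.25, 9.26 and 9.44 with PIK75 (log2 0.38, SE 0.070, adjusted p = 0.000639). The control values of H2AC25 were almost equal, 10.18, 10.18 and 10.19, and the PIK75 values were 10.52, 10.49 and 10.57 (log2 0.34, SE 0.048, adjusted p = 7.56e-05). Hybridization-spike centring brought these differences to 0.0047 for H2AC4 (adjusted p = 0.963, lowest over its alternatives 0.000373) and -0.03 for H2AC25 (adjusted p = 0.72, lowest 7.27e-06).

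The H4 genes, which nearly all encode the same protein, differed by -0.11 to 0.34 on the log2 scale. Of 8 protein-coding H4 genes 7 were called higher and the eighth, H4C8, was not (log2 -0.11, adjusted p = 0.171). Their median was 0.23, and that of the H2B class was 0.23 too, though no H4 gene reached the leading H2B rises. Of the 8 H4 genes 6 have a mean of 6 to 8, where 45.1% of all genes were higher. With the poly-A spikes 2 of the 8 were higher, and with cyclic loess 3 were higher and H4C8 was lower (-0.25, adjusted p = 0.00844), as it was with the mean of its probe sets (-0.15, adjusted p = 0.029). H4C5 read 7.71, 7.61 and 7.62 in controls and 7.96, 7.97 and 8.03 with PIK75 (log2 0.34, SE 0.071, adjusted p = 0.00149). H4C7 read 7.95, 7.88 and 7.80 against 8.11, 8.23 and 8.29 (log2 0.33, SE 0.078, adjusted p = 0.00305). Neither gene's groups overlapped, but both values turned to -0.03 and -0.04 with the hybridization spikes, where 0 of 8 H4 genes were higher and 2 lower.

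**Figure D2:**
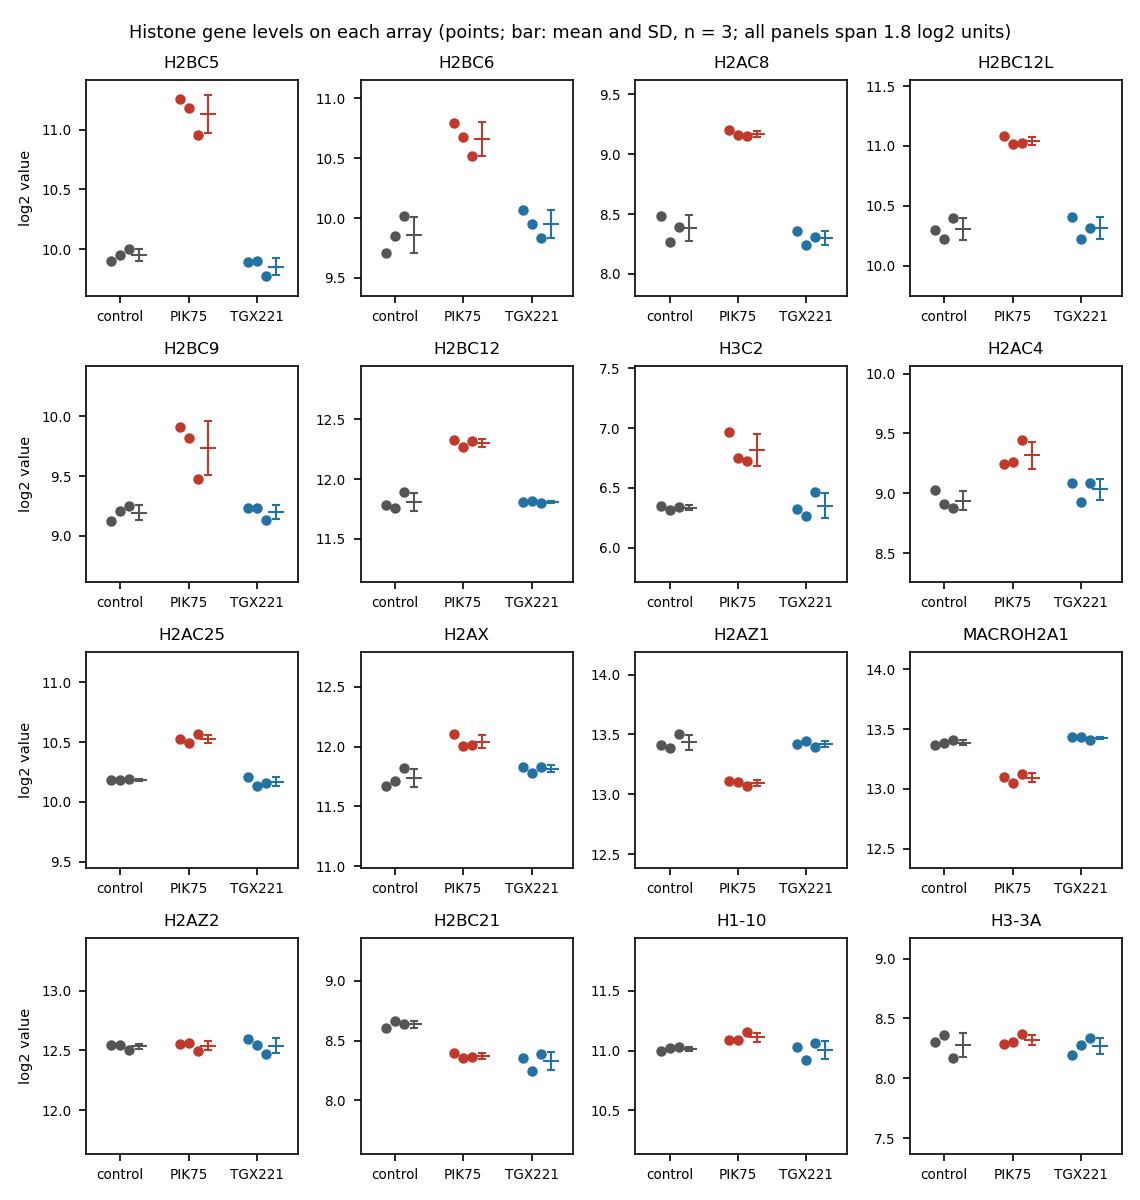
Log2 value on each array for 16 histone genes (points; the bars give the mean and SD of 3 arrays), by group, with every panel spanning 1.8 log2 units. In H2BC5 the PIK75 arrays lie at 10.95 to 11.25 and the controls at 9.91 to 10.01, in H2AZ1 and MACROH2A1 the PIK75 arrays lie below the controls, and in H2BC21 both treated groups do. These are deposited values; centred on the hybridization spikes, the differences of H2AC25 and H2AX are below 0.

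Among H1 genes, the linker histones, 5 of 9 protein-coding members were called higher and 0 lower by limma, with a median of 0.17 and the same counts at an unadjusted p below 0.05, a mark passed upward by 39.1% and downward by 26.1% of all genes. H1-6, a linker histone of the testis, read 7.03, 6.96 and 7.03 in controls and 7.36, 7.36 and 7.22 with PIK75 (log2 0.31, SE 0.055, adjusted p = 0.000505). All 4 germline genes, known from testis or oocyte, were called higher (H1-6, H1-7, H1-8 and H2BC1, median 0.25). Of all genes with a mean of 6 to 8, the range of H1-6 and H1-8, 45.1% were called higher. With the hybridization spikes 0 of the 4 germline genes were higher and 1 lower. Of 8 H3 genes H3C2 and H3C6 (log2 0.22, adjusted p = 0.0236) were called, both higher, and 6 were not. The shares of adjusted calls over all genes were 35.2% higher and 25.2% lower. Of the 4 members that do not encode protein, H2AC5P was called higher (log2 0.21, adjusted p = 0.0408).

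Rises of this small size were common among dim genes. The markers of cell types that the line lacks read higher with PIK75 too: 3 of 5 leukocyte, 4 of 6 fibroblast and 2 of 4 endothelial markers were called higher and 0 lower, with medians of 0.20, 0.27 and 0.20. Their summed log2 values over the list were 34.0 to 34.5 in controls and 34.9 to 35.5 with PIK75 for leukocytes, 43.4 to 43.9 and 44.6 to 45.3 for fibroblasts, and 29.0 to 29.2 and 29.7 to 30.0 for endothelium. Their part in the small histone rises was not tested. Bins of brightness, chosen after seeing this, gave 25 members with a mean log2 value of 6 to 8, of which 15 were higher and 0 lower (median 0.20), beside 2841 higher and 636 lower of 6299 genes of that range (median 0.15). Of 8 members below 6, a level at which signal and background could not be separated, 2 were higher (median 0.13, against 0.09 for 2678 genes). The level of 6 is a set threshold. Markers of cell types that the line lacks had means up to 9.38, so a value above 6 does not by itself show expression.

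Among bright genes the counts of members and of all genes ran in opposite directions, which is a description with no test. Of 11 members with a mean of 10 or more, 7 were higher and 2 lower with a median of 0.31, while of 3487 such genes 814 were higher and 1693 lower with a median of -0.13. The mean is taken over all 9 arrays, so the PIK75 values help to place a gene. H2BC5 and H2BC6 reached 10 only through their PIK75 arrays. Their means were 9.96 and 9.86 in controls and 9.86 and 9.95 with TGX221, so their place among the bright higher members is not independent of their rise. Between 8 and 10, 7 of 11 members were higher and 1 lower (median 0.21), beside 2646 higher and 2581 lower of 7311 genes (median 0.03). After hybridization-spike centring 3 bright members, H2BC5 and H2BC6 among them, were higher and 5 lower (median -0.07), beside 132 and 2811 of all bright genes (median -0.51).

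**Figure D3:**
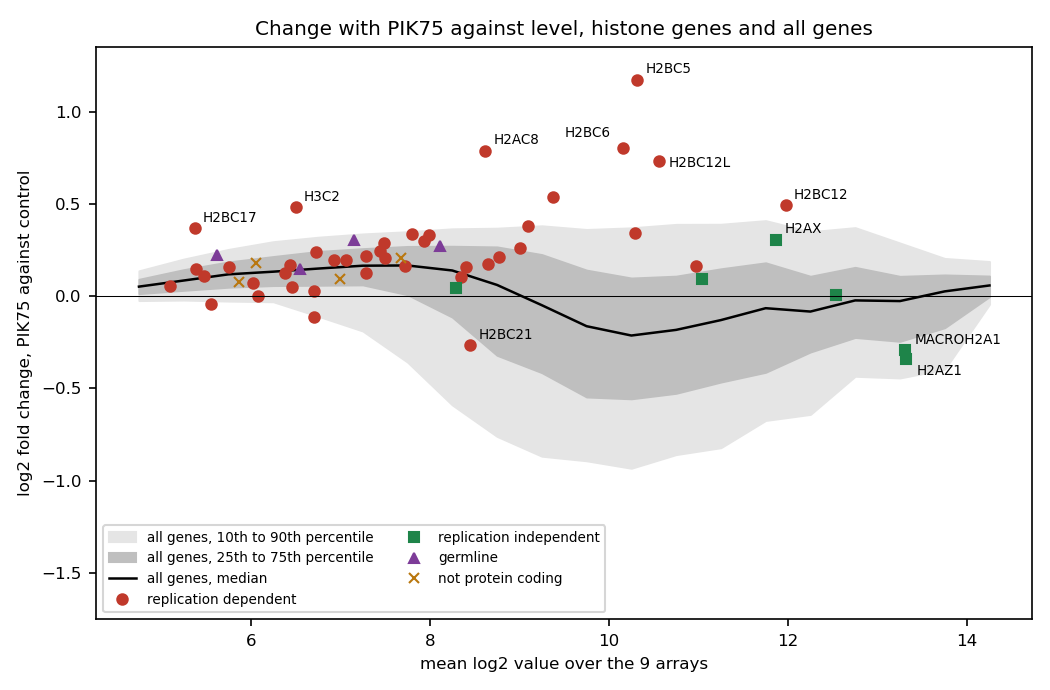
Log2 difference between PIK75 and control (vertical) against the mean log2 value over 9 arrays (horizontal) for histone genes by kind, over the median and the percentile bands of all genes in steps of brightness. Most dim members lie near the median line, which is above 0 there, while H2BC5, H2BC6, H2BC12L, H2AC8, H2BC12 and H3C2, among others, lie above the bands and H2AZ1, MACROH2A1 and H2BC21 below 0. With the hybridization spikes all points and bands shift down together by 0.37.

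Of the genes of replication-independent variants, 1 of 6 was called higher and 2 lower, with a median of 0.02. All but H3-3A have a mean of 10 or more, where 23.3% of all genes were higher and 48.6% lower. The counts of so few genes are not set apart from that background. H2AZ1 (Entrez gene 3015, chromosome 4, 99948088 to 99950275) encodes H2A.Z, a variant found at promoters. It read 13.41, 13.39 and 13.51 in controls and 13.11, 13.10 and 13.07 with PIK75, lower on every PIK75 array (log2 -0.34, SE 0.051, adjusted p = 0.000121). MACROH2A1 (Entrez gene 9555, chromosome 5, 135334381 to 135399887) encodes macroH2A, a variant with a large extra domain that marks silent chromatin. Its values were 13.37, 13.39 and 13.41 against 13.10, 13.05 and 13.13 (log2 -0.29, SE 0.047, adjusted p = 0.000214). Both falls held under every scaling run, from -0.27 (cyclic loess) to -0.71 (hybridization spikes) for H2AZ1 and from -0.22 to -0.67 for MACROH2A1.

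H2AX (Entrez gene 3014, chromosome 11, 119093874 to 119095465) encodes H2A.X, which is phosphorylated at DNA breaks, and its gene is known to give both a stem-loop and a polyadenylated mRNA. It read 11.671, 11.716 and 11.819 in controls and 12.104, 12.003 and 12.016 with PIK75, all above the controls (log2 0.31, SE 0.055, adjusted p = 0.000534). The rise lost its call after centring on poly-A spikes (0.21, adjusted p = 0.0543) and turned to -0.07 after centring on hybridization spikes (adjusted p = 0.453), and the lowest adjusted p among its alternatives was 1.8e-05. H1-10, a linker variant, read 11.00, 11.03 and 11.03 in controls and 11.08, 11.09 and 11.15 with PIK75, a difference of 0.09 that was not called (adjusted p = 0.141). Cyclic loess made it a call for higher (0.23, adjusted p = 0.00612) and hybridization-spike centring a call for lower (-0.28, adjusted p = 0.00256); the highest adjusted p among its alternatives was 0.979. H3-3A, one of the genes for H3.3, read 8.30, 8.36 and 8.17 against 8.29, 8.30 and 8.37 and was not called (0.04, adjusted p = 0.574). Hybridization-spike centring made it a call for lower (-0.33, adjusted p = 0.000336, the highest over its alternatives being 0.862). Brighter probe sets that list an H3 gene beside a symbol outside the histone series differed by -0.06 to -0.34, some called lower and none higher. They are not assigned to a gene here.

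For H2AZ2, which encodes a second form of H2A.Z, the answer depended on the probe set. The brightest read 12.55, 12.55 and 12.51 in controls and 12.56, 12.56 and 12.50 with PIK75, a difference of 0.0050 (95% interval -0.11 to 0.12, adjusted p = 0.937). The other 3 probe sets fell, from means of 12.6, 10.7 and 10.3 in controls, by 1.19, 1.47 and 0.60 on the log2 scale (adjusted p = 8.82e-08, 4.27e-09 and 1.09e-05, over 54613 probe sets). The mean of the 4 gave -0.81 (adjusted p = 3.5e-08, while the highest among the alternatives was 0.953). Where these probes lie on the transcript is not analysed here.

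Of 11 members with more than 1 probe set, the other 21 probe sets gave 7 calls higher and 9 lower, beside 30.3% higher and 19.9% lower among every probe set of the array. None was called against the direction of a called brightest probe set. The second probe set of H2AZ1 fell (log2 -0.38). Of the 6 further ones of MACROH2A1, 4 fell (log2 -0.24 to -0.74) and the 2 dim ones were not called. H2AX had 2 others higher (log2 0.48 and 0.52) and 1 not called (0.09).

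**Figure D4:**
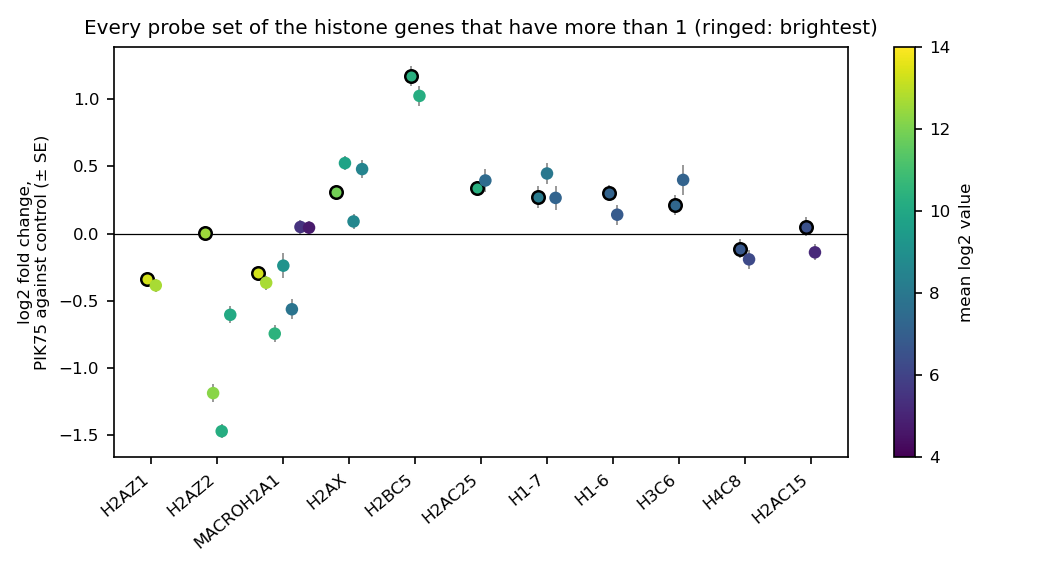
Log2 difference between PIK75 and control (with SE) for every probe set of the 11 histone genes that have more than 1, coloured by mean log2 value, with the brightest ringed. The brightest probe set of H2AZ2 lies at 0.0050 and its 3 others between -1.47 and -0.60. Both H2BC5 probe sets, which carry the suffix for shared sequence, lie above 1. On the hybridization spikes the brightest of H2AX, H2AC25 and H1-6 are below 0.

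H2BC21 (Entrez gene 8349, chromosome 1, 149884459 to 149886682), an H2B gene known to make a polyadenylated transcript, was the replication-dependent gene that was called lower. It read 8.60, 8.66 and 8.64 in controls and 8.40, 8.36 and 8.36 with PIK75, below every control (log2 -0.26, SE 0.053, adjusted p = 0.00112). The fall held under every scaling run (-0.34 to -0.64 with cyclic loess and the 2 spike sets). Of the 14 H2B genes, H2BC21 was lower, 9 were higher and 4 were not called, beside 35.2% higher and 25.2% lower of all genes. Of the 3 members called lower, all 3 have a brightest probe set with a suffix for shared sequence. Among the 38 members whose brightest probe set has no such suffix 23 were higher and 0 lower, an alternative chosen after seeing the data. H2AZ1 and MACROH2A1 were also called lower on other probe sets without the suffix (log2 -0.38, and -0.24, -0.56 and -0.74). A dim probe set of MACROH2A1 without it was not called (0.04).

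Pairs of H2A and H2B genes that start close together on opposite strands share the sequence between them, and 4 such pairs were measured, all on chromosome 6. In the pair H2AC17 and H2BC17, with starts 240 bases apart, both were called higher (log2 0.16, adjusted p = 0.0353, and 0.37, adjusted p = 0.000206), although the H2BC17 probe set is dim. In H2AC14 and H2BC14 (245 bases) the first was called higher (log2 0.26, adjusted p = 0.000685) and the second was not (0.16, adjusted p = 0.0568). Neither gene was called in H2AC6 and H2BC4 (246 bases, log2 0.10 and -0.04) or in H2AC15 and H2BC15 (194 bases, log2 0.05 and 0.07). With arrays centred on the hybridization spikes the values of H2AC14, H2AC17 and H2BC17 were -0.11, -0.21 and -0.0038.

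With TGX221, 1 histone gene, H2BC21, was called lower and none higher. The limma counts of 0 and 1 stood beside 0.809% higher and 0.399% lower of all genes (1.21% in all), and the median of the members was 0.0083. At an unadjusted p below 0.05, 5 members were higher (9.09%) and 4 lower (7.27%), near the 9.42% and 8.89% of all genes. The leading genes of the PIK75 comparison were not called. H2BC5 read 9.89, 9.90 and 9.77 (log2 -0.10, 95% interval -0.26 to 0.06, adjusted p = 0.523) and H2AC8 8.36, 8.24 and 8.31 (log2 -0.08, interval -0.21 to 0.05, adjusted p = 0.53). H2AZ1 read 13.42, 13.45 and 13.39 (log2 -0.01, interval -0.12 to 0.10, adjusted p = 0.924) and MACROH2A1 13.43, 13.43 and 13.41 (log2 0.04, interval -0.07 to 0.14, adjusted p = 0.736).

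The gene called with TGX221 was H2BC21, at 8.36, 8.24 and 8.39 against 8.60, 8.66 and 8.64 in the controls (log2 -0.31, SE 0.053, adjusted p = 0.0317). The treated arrays lay below every control, as they did for 12.4% of all genes. Leaving out 1 array at a time, the call was kept without TGX221 replicate 3 (adjusted p = 0.034) and lost without control replicate 1 (adjusted p = 0.0612), 3 (0.111) or 5 (0.0774) and without TGX221 replicate 2 (0.139) or 5 (0.142), and also after centring on poly-A spikes (0.119). Adjusted p-values over its alternatives ran from 0.00951 to 0.248. Both inhibitors were set against the same 3 control arrays, so the falls of H2BC21 in the 2 comparisons are not independent. Set directly against each other, PIK75 and TGX221 differed for it by 0.04 (95% interval -0.07 to 0.16, adjusted p = 0.547).

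In the direct comparison of the inhibitors, at unlike labelled doses, 24 members were higher with PIK75 and 2 lower (H2AZ1 and MACROH2A1), beside 25.1% higher and 22.3% lower of all genes (47.4% in all), with medians of 0.15 and 0.06. H2BC5 was higher with PIK75 by 1.27 (adjusted p = 4.33e-08), H2AC8 by 0.87 (adjusted p = 1.92e-07), H2BC12L by 0.73 (adjusted p = 1.12e-06), H2BC6 by 0.71 (adjusted p = 3.41e-05) and H2BC12 by 0.49 (adjusted p = 7.1e-06) on the log2 scale. H2AZ1 was lower by 0.33 and MACROH2A1 by 0.33 (log2 -0.33 each, adjusted p = 0.000197 and 9.44e-05). Of the replication-dependent genes 22 of 41 were higher and 0 lower by limma (24 and 0 at an unadjusted p below 0.05, beside 30.8% and 23.9% of all genes), and of the 6 independent ones 1 was higher and 2 lower. Under hybridization-spike centring the counts over all members turned to 6 higher and 24 lower and the median to -0.15, and with the poly-A spikes to 9 and 5 and -0.01.

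The genes that make and handle histone mRNA changed in both directions with PIK75. Of 26 measured genes of histone mRNA transcription and 3′ processing, 7 were higher (26.9%) and 10 lower (38.5%), with a median of -0.07. The list's median level was 9.82, and the shares among all genes were 36.2% and 35.3% between 8 and 10 and 23.3% and 48.6% from 10 up, so these counts too lie near the background. LSM11, a subunit of the U7 particle that helps to cut histone pre-mRNA, read 9.07, 9.17 and 9.15 in controls and 7.79, 7.59 and 7.73 with PIK75, 2.69-fold lower (log2 -1.42, SE 0.066, adjusted p = 5.58e-09). ZNF473, a zinc finger protein that binds the same particle, went the other way, from 8.58, 8.66 and 8.61 to 9.51, 9.46 and 9.45 (log2 0.86, SE 0.065, adjusted p = 2.75e-07). Neither pair of groups overlapped.

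Transcription factors of histone genes also parted. HINFP, which binds H4 promoters, read 9.11, 9.18 and 9.12 against 10.13, 10.10 and 9.82 (log2 0.88, SE 0.077, adjusted p = 1.08e-06). NPAT, the coactivator of the histone locus body, read 9.90, 9.95 and 10.03 against 9.69, 9.54 and 9.43 (log2 -0.41, SE 0.068, adjusted p = 0.000278). SRRT, a partner of the cap-binding complex, was higher (log2 0.61) and NCBP1, the large subunit of that complex, lower (log2 -0.94). These 6 directions held under every scaling run and with the mean of probe sets, but sizes moved. The mean of probe sets gave -0.55 for LSM11, 0.51 for ZNF473 and -0.21 for NPAT. Hybridization-spike centring gave 0.49 for ZNF473, 0.50 for HINFP, 0.23 for SRRT and -0.78 for NPAT.

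SLBP, the protein that binds the stem-loop, read 11.95, 11.91 and 12.02 in controls and 12.20, 12.19 and 11.95 with PIK75, so that replicate 5 lay among the controls. It was not called (log2 0.15, SE 0.068, adjusted p = 0.0652). Leaving out PIK75 replicate 5 made it a call for higher (0.24, adjusted p = 0.00367), as did cyclic loess (0.27, adjusted p = 0.00256) and a trended, robust spread (adjusted p = 0.0268), whereas hybridization-spike centring made it a call for lower (-0.22, adjusted p = 0.0185). The highest adjusted p among its alternatives was 0.67.

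Histone chaperones, which carry histones to and from DNA, had 6 of 23 members higher (26.1%) and 10 lower (43.5%; median -0.15). The list's median level was 10.8, and of all genes with a mean of 10 or more 23.3% were higher and 48.6% lower (median -0.13), so the counts lie near that background. NAP1L4, a chaperone of H2A and H2B, was 2.16-fold lower (log2 -1.11, SE 0.085, adjusted p = 3.18e-07), at 11.30, 11.27 and 11.13 against 10.22, 10.22 and 9.93, while the mean of its probe sets differed by -0.41. RBBP7, a histone-binding subunit of several chromatin complexes, fell by 0.82, ATRX, a remodeller that works with DAXX on H3.3, by 0.74, and NASP, which holds the reserve of H3 and H4, by 0.60 on the log2 scale. UBN2, of the complex that deposits H3.3, fell by 0.66, but its probe sets averaged -0.08 and lost the call (adjusted p = 0.15, against 1.39e-12 at the lowest among its alternatives). Centred on hybridization spikes, 0 of the 23 were higher and 19 lower.

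Of 29 genes of S phase, the time when the clustered histone genes are transcribed, 14 (48.3%) were lower and 7 (24.1%) higher, with a median of -0.13, shares near those of all genes with a mean of 10 or more (48.6%, 23.3% and -0.13), the range that holds the list's median of 10.6. CCNE2, cyclin E2, which activates the kinase that phosphorylates NPAT, read 11.07, 11.07 and 11.31 in controls and 9.83, 9.76 and 9.56 with PIK75 (log2 -1.43, SE 0.089, adjusted p = 5.76e-08). POLA2, a subunit of DNA polymerase alpha, read 10.12, 10.07 and 10.09 against 9.11, 8.89 and 8.89 (log2 -1.13, SE 0.065, adjusted p = 3e-08), while the mean of its probe sets differed by -0.29. RRM2, POLE2 and PRIM1 completed the 5 with the smallest p (log2 -1.43, -1.17 and -1.07). Centred on hybridization spikes, 0 of the 29 were higher and 22 lower.

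With TGX221, limma called 0 genes higher and 0 lower in each of these 3 lists. At an unadjusted p below 0.05, 0 were higher in any list, and 6 of 26 processing genes, 2 of 23 chaperones and 3 of 29 S phase genes were lower. Beside these stood 9.42% higher and 8.89% lower of all genes. The shares were 2.09% and 5.82% for a mean of 10 or more. They were 12.2% and 14.8% between 8 and 10, the range that holds the processing list's median. LSM11 read 8.90, 8.97 and 8.79 (log2 -0.24, adjusted p = 0.0886) and HINFP 8.98, 8.94 and 9.08 (log2 -0.14, adjusted p = 0.356).

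**Figure D5:**
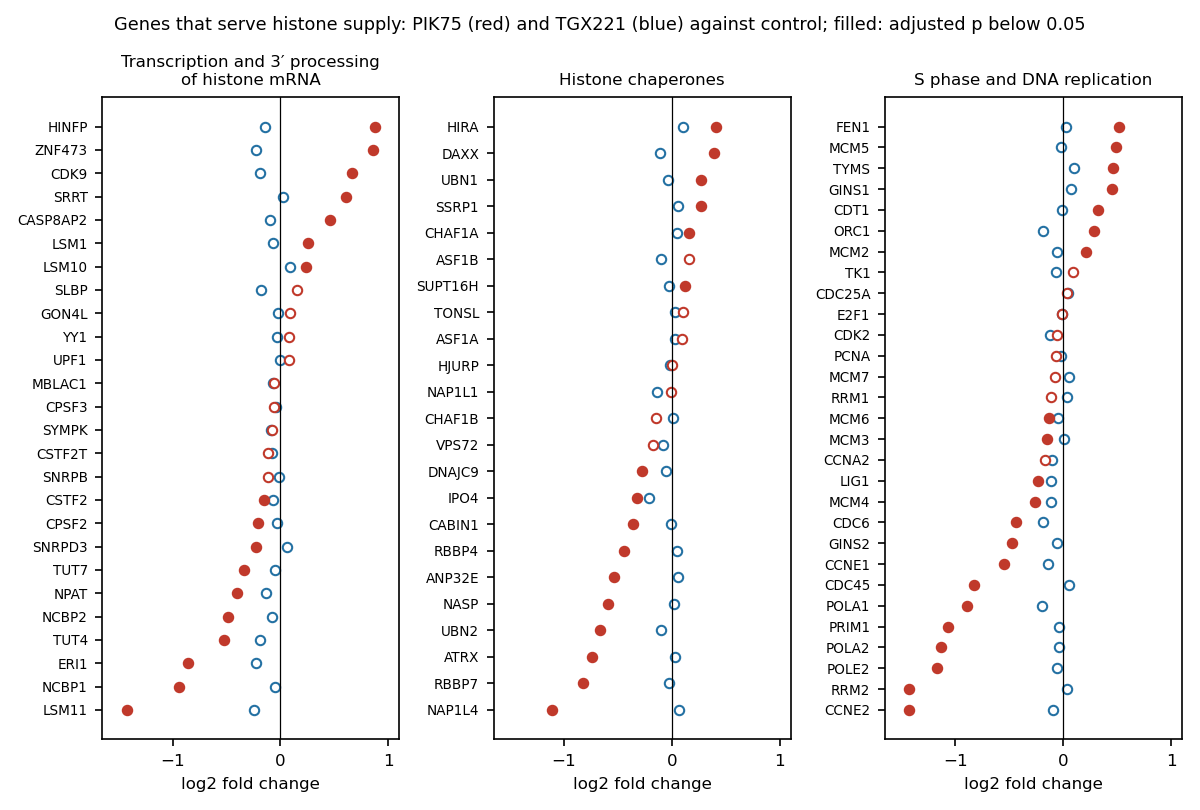
Log2 difference from control with PIK75 (red) and TGX221 (blue) for the measured genes of histone mRNA transcription and 3′ processing (26), histone chaperones (23) and S phase (29), with filled points at an adjusted p below 0.05. PIK75 points spread from LSM11 at -1.42 to HINFP at 0.88 in the first panel and reach -1.11 (NAP1L4) and -1.43 (CCNE2) in the others, while the TGX221 points stay near 0 and none is filled. Centring on hybridization spikes puts the SLBP point at -0.22.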

How the data were processed

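The authors deposited 1 log2 value per probe set and array, made with RMA per the submitters' processing notes; its version is not given in the sources used here. RMA gives the arrays a common distribution, so a change shared by most genes cannot be measured. Of 54675 probe sets, 41091 carry 1 symbol, and the brightest stands for each of 19775 genes; 55 of 55 members matched the RefSeq table (GRCh38.p14).

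Limma 3.58.1 (R 4.3.3; lmFit and eBayes, 3 group means, 6 residual and 6.155 prior degrees of freedom) was fitted on all 9 arrays, with Benjamini-Hochberg adjustment over all genes, and checked on simulated data. An exact test of 3 arrays against 3 cannot go below p = 0.1. Values on each array are given for up to 14 called members of at least 6 with the largest difference per comparison, for replication-independent members, and for the 5 smallest p of each gene list, SLBP and NPAT; other names were chosen after their values were seen. The members and lists were chosen with earlier results of these data known. Replicate numbers did not pair the arrays: deviations of same-numbered control and PIK75 arrays correlated at -0.13, 0.12 and -0.05. Alternatives covered scaling, probe sets, brightness, fit, threshold and leaving out each array.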

Additional observations from a re-analysis of the deposited data

Results flagged for a closer look

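Probe sets that list several histone genes stand outside the counts above, and they too carried signal. Of 20 such probe sets, 13 were higher and 2 lower with PIK75 by limma, with a median log2 difference of 0.24 and a range of -0.74 to 0.82, beside 30.3% higher and 19.9% lower among every probe set of the array. The 5 that list H2A genes were all higher, at 0.23 to 0.42. Of the 5 that list H2B genes, 3 were higher and 2 lower, so both directions occur in that class here as among the single genes. Counted over these and the probe sets that list a histone gene beside other symbols, 28 in all, 20 histone genes have no probe set of their own. No gene is named from them.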

How the results depend on the processing

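For PIK75 against control (31 higher, 3 lower, median 0.18), the poly-A spikes gave 12 higher and a median of 0.079, the hybridization spikes 4 higher, 26 lower and -0.20, and cyclic loess 17 higher, 5 lower and 0.062. The mean of probe sets gave 5 lower, and leaving out genes below the median brightness 13 higher of 21 (median 0.21). A minimum of 1.5-fold gave 4 higher and 0 lower, and an adjusted p below 0.01 19 higher. Leaving out members whose brightest probe set has a shared-sequence suffix gave 0 lower. That step drops H2AZ1 and MACROH2A1, of which other probe sets without the suffix were called lower. Without 1 array at a time, 25 to 28 were higher, 3 to 3 lower, and the median was 0.17 to 0.20. For TGX221 the 1 lower call went to 0 with the poly-A spikes, with only the 2 groups, with the replicate block, at 1.5-fold and at the stricter p, and to 0 to 2 without 1 array (2 without TGX221 replicate 3); its median was 0.074 with the poly-A spikes, -0.059 with the hybridization spikes and -0.0023 to 0.03 without 1 array. For PIK75 against TGX221 (24 higher, 2 lower, median 0.15), the poly-A spikes gave 9, 5 and -0.012, the hybridization spikes 6, 24 and -0.15, cyclic loess 6 lower and 0.063, the mean of probe sets 4 lower and 0.19, the brighter genes 13 higher and 0.28, and 1.5-fold 4 and 0; without 1 array the values were 20 to 24, 2 to 2 and 0.14 to 0.16. With the hybridization spikes the sign turned for H1-10 (-0.28), H1-6 (-0.067), H2AC25 (-0.032), H2AX (-0.067), H2AZ2 (-0.37), H3-3A (-0.33), H4C5 (-0.035), H4C7 (-0.04) and SLBP (-0.22), and with the mean of probe sets for H2AZ2 (-0.81). The cause was not tested. The hybridization spikes themselves read 0.37 higher with PIK75 and the poly-A spikes 0.10 higher. The replicate block left 28 members higher and 3 lower with PIK75 and 20 and 2 against TGX221, and changed no call among the genes named for PIK75. Over all named genes and alternatives, 543 values kept direction and call, 31 lost the call, 4 gained it and 10 turned. Precision is limited by 3 arrays per group, and values under 6 were not told apart from background. A value above 6 does not by itself show expression either, as markers of cell types that the line lacks had means up to 9.38.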
